A study of Homo sapiens with 33 samples.

Results

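The centrosome is built around a pair of centrioles, short barrels of microtubules that duplicate once per cell cycle and that also seed the primary cilium. Many of its proteins carry CEP names. They template new centrioles, organise the pericentriolar material that nucleates microtubules, form the appendages that dock a centriole at the membrane, or move as centriolar satellites, which are granules that carry proteins to the centrosome. The genes described here are 49 of the 15148 gene names in the deposited tables. They were chosen by name: every entry whose name is CEP, a number and at most further letters, plus 14 further centriole, centrosome and satellite genes (CCDC14, PCM1, OFD1, CNTROB, CENPJ, SASS6, STIL, PCNT, CDK5RAP2, NIN, CNTRL, POC1A, POC1B and POC5). The group was proposed after earlier results of these data, among them the fold change of CCDC14 in UM-UC-3, so counts over the members describe them and do not test them. CEP57L1, whose name ends in a digit, is outside this rule and is counted with other centrosome genes further on. AZI1 was also sought; that gene is listed in the tables under its current name, CEP131. CEP295NL was listed only for UM-UC-3, which leaves 48 members in each A-375 table.

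RNA sequencing was done on 33 libraries of cultured human cancer cells in which GABPB1 had been edited with CRISPR. GABPB1 is the B1 subunit of GABP, a transcription factor whose partner subunit GABPA belongs to the ETS family and binds DNA at GGAA cores. The A-375 melanoma line gave 4 libraries of clones with exons 2 to 9 deleted (B1KO), 8 libraries of 5 clones with exon 2 deleted (B1X2KO), 2 libraries of clones with exon 9 deleted (B1LKO, loss of the long form), 4 libraries of 3 control clones cut at the ROSA26 locus (ROSA26_KO) and 2 parental libraries without a knockout. The UM-UC-3 bladder cancer line gave 4 B1KO libraries, 5 B1X2KO libraries of 4 clones, 3 ROSA26_KO libraries and 1 parental library. B1KO and B1X2KO together form the total knockout, with 12 libraries of 9 clones in A-375 and 9 libraries of 8 clones in UM-UC-3. Edited cells were grown from single sorted cells, so each edited library is a clone, and repeat libraries of 1 clone are not separate clones.

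Each value below is the authors' fitted log2 fold change of knockout over control with its standard error (SE). A gene is called when the authors' adjusted p (Wald test, Benjamini-Hochberg over all genes of the table) is under 0.05. Values per library were not used here, so the depth of each library is unknown and the overlap of individual libraries cannot be given. The tables name the parental cells as the control and do not say whether ROSA26_KO libraries entered. The UM-UC-3 values may therefore rest on 1 control library. GABPB1L, the entry for the long form, stood at a log2 fold change of -10.60 ± 0.70, -12.60 ± 0.71 and -12.79 ± 1.47 per the authors' deposited tables for the A-375 total, UM-UC-3 total and A-375 long-form knockouts. In the long-form table the short-form entry GABPB1S rose by 13.95 ± 1.04 (adjusted p 3.55e-37) and GABPB1S-DEX2, a short form without exon 2, fell to 0.000244 times the control (adjusted p 1.76e-12) per the authors' deposited table. The controls of that table therefore carry a short-form entry that in the A-375 total-knockout table was a feature of the knockout (GABPB1S-DEX2, 12.36 ± 1.88 higher per the authors' deposited table). No source used here says how reads were assigned to these entries, and directions in the long-form table are read with that limit.

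CCDC14, a protein of centriolar satellites, was the member with the largest fall in UM-UC-3 and the second largest in A-375. It was also among the 3 members called lower in both cell lines, with CENPJ and CEP152. CENPJ (also CPAP) sets the length of centriole microtubules, and CEP152 brings the duplication kinase PLK4 to the parent centriole. CNTRL (centriolin), a protein of the subdistal appendages of the mother centriole, had the largest fall in A-375 and was not called in UM-UC-3. The 250 bases upstream of the RefSeq start of these 4 genes (GRCh38.p14) are shown because they carried the largest or the shared changes and because GABP binds DNA through an ETS domain. Capitals mark matches to CCGGAAG, an ETS core motif that was searched on both strands, and each sequence is written in the direction of its gene.

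CCDC14 (chr3:123961230-123961479, minus strand): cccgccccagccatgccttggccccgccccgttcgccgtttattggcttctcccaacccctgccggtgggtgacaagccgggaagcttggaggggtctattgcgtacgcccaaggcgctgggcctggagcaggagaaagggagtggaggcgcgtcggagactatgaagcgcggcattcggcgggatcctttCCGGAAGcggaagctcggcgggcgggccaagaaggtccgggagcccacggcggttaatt
CENPJ (chr13:24922862-24923111, minus strand): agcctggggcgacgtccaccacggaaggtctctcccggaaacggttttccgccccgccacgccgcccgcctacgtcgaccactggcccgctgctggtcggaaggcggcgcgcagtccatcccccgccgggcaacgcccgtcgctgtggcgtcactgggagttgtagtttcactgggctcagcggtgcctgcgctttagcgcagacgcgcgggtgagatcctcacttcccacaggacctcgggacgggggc
CEP152 (chr15:48811070-48811319, minus strand): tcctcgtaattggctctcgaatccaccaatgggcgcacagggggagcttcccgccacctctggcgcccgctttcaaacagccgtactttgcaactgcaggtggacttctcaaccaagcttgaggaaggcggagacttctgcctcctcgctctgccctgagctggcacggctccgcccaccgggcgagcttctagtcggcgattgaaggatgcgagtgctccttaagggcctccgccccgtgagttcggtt
CNTRL (chr9:121074705-121074954, plus strand, the upstream of its 2 RefSeq starts): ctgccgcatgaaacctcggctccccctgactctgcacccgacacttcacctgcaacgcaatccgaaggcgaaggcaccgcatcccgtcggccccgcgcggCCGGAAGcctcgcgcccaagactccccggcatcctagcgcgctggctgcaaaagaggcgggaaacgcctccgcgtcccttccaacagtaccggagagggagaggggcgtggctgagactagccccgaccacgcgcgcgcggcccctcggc

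In CCDC14 the match began 59 bases upstream of the RefSeq start, and in CNTRL it began 150 bases upstream. GENCODE 29 starts these genes elsewhere, so 179 of the printed bases of CCDC14, 92 of CNTRL, 77 of CEP152 and 28 of CENPJ lie inside its gene spans. Counted from the GENCODE start, the match of CCDC14 began 120 bases downstream, inside the gene, and that of CNTRL 58 bases upstream. CENPJ and CEP152 held no match in these windows. Among the 43 members with a promoter in the RefSeq table (250 bases before to 50 after a start), 10 (23.3%) held CCGGAAG on either strand, against 20.8% of the 11015 genes of the deposited tables with a promoter there and 12.2% of all 27305 genes in it. Matches were in CCDC14, CEP162, CEP164, CEP44, CEP55, CEP95, CNTRL, CNTROB, OFD1 and SASS6, and the last pair held 2 matches each. Of the 7 members called lower in A-375, 3 held the motif (CCDC14, CNTRL and CEP44). The counts are 1 of 5 for those called lower in UM-UC-3 (CCDC14) and 1 of 7 for those called higher there with a promoter in the table (CEP95). A match describes the letters of the window and does not show binding.

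**Figure D1:**
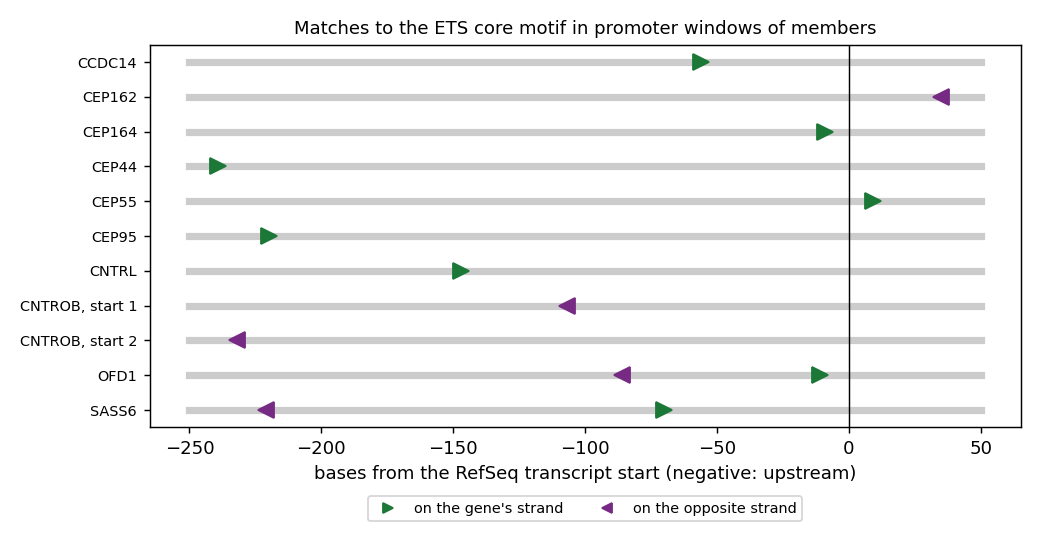
Positions of the CCGGAAG motif in RefSeq promoter windows of the 10 members that held it. The x axis gives bases from the transcript start, each grey bar is a window, and arrowheads mark the centre and strand of a match. From the RefSeq starts, the match of CCDC14 began 59 bases upstream and that of CNTRL 150 bases upstream.

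In the A-375 total knockout, the members called were all lower. They were 7 of 48 members (14.6%), where 5.74% of all genes in the table were called lower. None was called higher, where the share over all genes was 5.07%. At an unadjusted p under 0.05 there were 13 lower (27.1%) and 3 higher (6.25%; CEP164, CEP170B and CEP19), against 13.9% and 11.4% of all genes. Below 0 stood 42 of the 48 members, with a median log2 fold change of -0.32 against -0.05 over all genes, of which 7824 of 14330 were below 0. Genes of the G2 and M phases, which mark dividing cells, stood below 0 in 15 of 15 cases in the same table, with a median of -0.97, none called and 1 of them at an unadjusted p under 0.05. Their median SE was 0.66, against 0.28 over all genes, so a fall of this size was harder to call for them. The part of the G2 and M genes in the members' values was not tested.

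**Figure D2:**
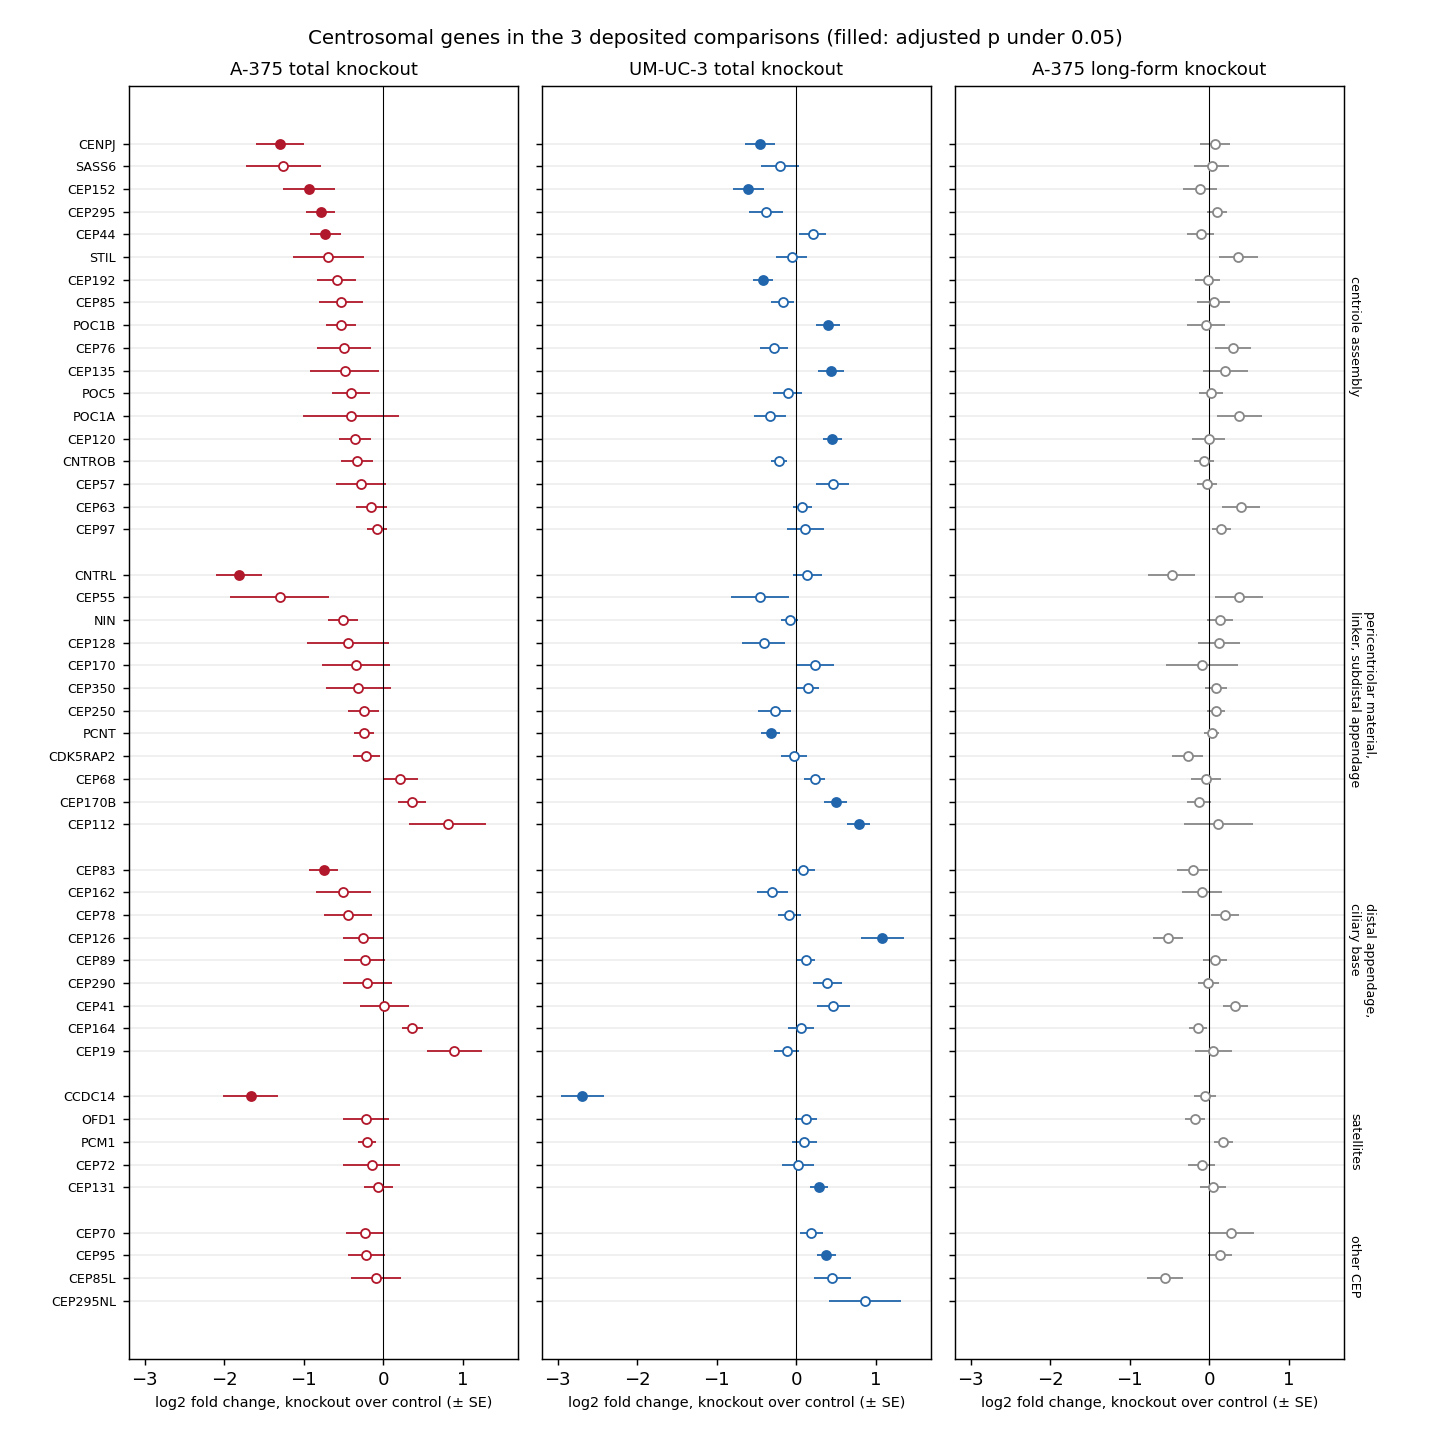
Log2 fold change of knockout over control for the members in the 3 deposited comparisons, with bars of 1 SE, grouped by role and ordered within a role by the A-375 total knockout. Filled points have an adjusted p under 0.05: 7 in A-375 (all lower), 13 in UM-UC-3 (5 lower and 8 higher) and none in the long-form knockout.

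Genes of centriole assembly held 4 of the 7 calls in A-375. All 18 of them stood below 0, with a median of -0.51. Over all genes, 7824 of 14330 did, with a median of -0.05. The 4 called were 22.2% of this role, against 5.74% of all genes called lower. Of the genes outside the members that are counted further on, 8 of 8 in augmin (median -0.58) and 23 of 26 further centriole and centrosome genes (median -0.62) were below 0. The gamma-tubulin ring complex had 7 of 11 below 0, and the other satellite and ciliary genes 12 of 17. CENPJ (chromosome 13, 24882284 to 24922889, hg38) fell by 1.30 ± 0.31 log2 units (adjusted p 0.00113) per the authors' deposited table, to 0.407 times the control. CEP152 (chromosome 15, 48712928 to 48811146) changed by -0.93 ± 0.32 (adjusted p 0.0401) per the authors' deposited table and was the call closest to the threshold; centring the table on its median ended it (0.0560). CEP295, which turns a new centriole into one that can act as a centrosome, changed by -0.79 ± 0.18 (adjusted p 0.000929) per the authors' deposited table. For CEP44, a centriole protein that binds microtubules, the value was -0.73 ± 0.20 (adjusted p 0.00567) per the authors' deposited table.

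The cartwheel proteins had large but imprecise values in A-375. SASS6, which forms the hub and spokes of the cartwheel, stood at -1.26 ± 0.47 (adjusted p 0.0628), and STIL, which loads SASS6, at -0.69 ± 0.45 (adjusted p 0.327) per the authors' deposited table. Neither was called. CEP192, which recruits PLK4 together with CEP152, stood at -0.58 ± 0.25 (adjusted p 0.104) per the authors' deposited table. POC1B, a protein of the centriole wall, was the first member outside the threshold (-0.53 ± 0.19, adjusted p 0.0552 per the authors' deposited table). The smallest values of this role were those of CEP63, a partner of CEP152 (-0.15 ± 0.19), and CEP97, which with CP110 caps the centriole end (-0.08 ± 0.12), per the authors' deposited table.

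Among the 12 genes of the pericentriolar material, the linker between centrioles and the subdistal appendages, CNTRL alone was called in A-375. That is 8.33% of the role, against 5.74% of all genes called lower. CNTRL (chromosome 9, 121074863 to 121177610) fell by 1.81 ± 0.29 log2 units (adjusted p 1.29e-07) per the authors' deposited table, to 0.284 times the control. Its mean of 1198 normalized counts implies 3097 in the controls and 881 in the knockout if only the 2 parental libraries were the control. With all 6 control libraries the implied levels are 2290 and 651. NIN, which anchors microtubules at the subdistal appendages, stood at -0.50 ± 0.19 (adjusted p 0.0599) per the authors' deposited table. PCNT and CDK5RAP2, scaffolds of the pericentriolar material, stood at -0.24 ± 0.12 (adjusted p 0.192) and -0.21 ± 0.17 (adjusted p 0.446) per the authors' deposited table. CEP55, which brings the membrane-cutting machinery to the midbody at the end of division, had the widest error of this role (-1.30 ± 0.62, adjusted p 0.165 per the authors' deposited table). Only 3 of the 12 stood above 0, and they were CEP68, CEP170B and CEP112 (0.22, 0.36 and 0.81 per the authors' deposited table).

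Of the 10 genes of the distal appendages and ciliary base, 1 was called in A-375 (10%, against 5.74% of all genes called lower). CEP83, on which the distal appendages are built, changed by -0.74 ± 0.18 (adjusted p 0.00166) per the authors' deposited table. CEP164, another distal appendage protein needed for cilium formation, stood on the other side of 0 (0.37 ± 0.14, adjusted p 0.0600 per the authors' deposited table). So did CEP19, with 0.89 ± 0.35 (adjusted p 0.0737) per the authors' deposited table. CEP164 was called higher after the table was centred, and it was then the single member called higher.

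Among the 5 satellite genes, CCDC14 stood apart in A-375. CCDC14 (chromosome 3, 123897305 to 123961408) fell by 1.67 ± 0.35 log2 units (adjusted p 0.000157) per the authors' deposited table, to 0.315 times the control. The mean of 836 normalized counts implies 2025 in the controls and 638 in the knockout with 2 controls, or 1539 and 485 with 6. The other satellite genes ranged from -0.21 (OFD1) to -0.06 (CEP131) per the authors' deposited table, and PCM1, the scaffold of the satellites, was at -0.20 ± 0.12 (adjusted p 0.272 there). The 3 measured genes with other CEP names stood between -0.23 (CEP70) and -0.09 (CEP85L), none of them called.

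In the UM-UC-3 total knockout the members went both ways. There were 5 called lower and 8 called higher of 49 (10.2% and 16.3%), where 14.2% of all genes were called lower and 17.0% higher, so both shares were near or below those over all genes. The median of the members was 0.09, against 0.03 over all genes. The G2 and M genes had a median of -0.33 in this table, with 15 of 15 below 0 and 2 called lower (TPX2 and UBE2C). Lower at an unadjusted p under 0.05 were 6 of the 15, against 18.6% of all genes. The part of the G2 and M genes in the members' values was not tested. Most of the changes were small. Only CCDC14 and CEP152 among the lower, and CEP112 and CEP126 among the higher, were called and changed at least 1.5-fold. By the same rule 6.96% of all genes were lower and 10.3% higher.

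**Figure D3:**
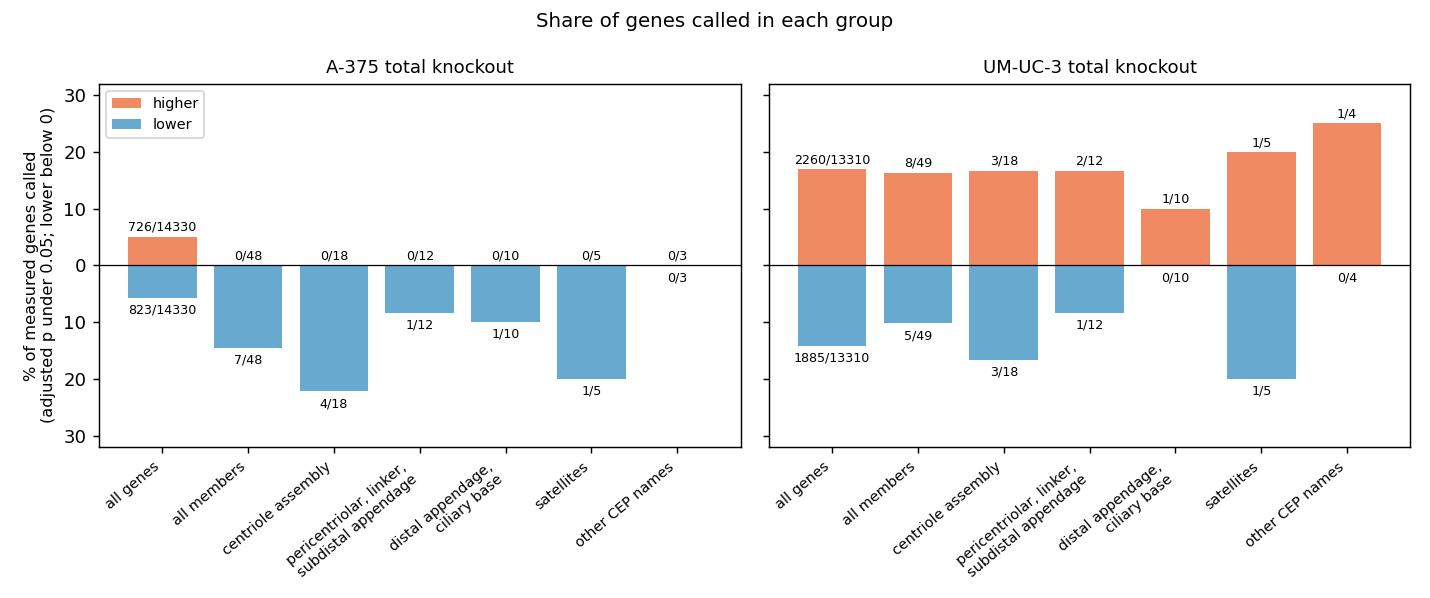
Percentage of measured genes called higher (above 0) or lower (below 0) at an adjusted p under 0.05, for all genes, all members and each role, with the number called over the number measured. In A-375, 7 of 48 members were called lower and 0 higher; in UM-UC-3, 5 of 49 were called lower and 8 higher.

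CCDC14 fell by 2.69 ± 0.27 log2 units in UM-UC-3 (adjusted p 3.43e-20) per the authors' deposited table, to 0.155 times the control. Its mean of 1427 normalized counts implies 5964 in the control and 923 in the knockout with 1 control library, or 3440 and 532 with 4. Normalized counts are scaled within each comparison. Summed over all genes, their means were 4.24e+07 in the UM-UC-3 total knockout comparison and 1.95e+07 in that of A-375. Implied levels are therefore not compared between the lines. No other satellite gene was lower. CEP131, a satellite protein that also acts in cilium formation, rose by 0.29 ± 0.11 (adjusted p 0.0336) per the authors' deposited table, a call that centring ended (0.0604). PCM1, OFD1 and CEP72 stood at 0.10 ± 0.15, 0.12 ± 0.14 and 0.02 ± 0.20 per the authors' deposited table, within 1 SE of 0.

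Of the 18 genes of centriole assembly, 3 were called lower in UM-UC-3 and 3 higher, with a median of -0.14; at 16.7% each way, these shares were near the 14.2% and 17.0% over all genes. CEP152 fell by 0.60 ± 0.19 log2 units (adjusted p 0.00932) and CEP192 by 0.42 ± 0.13 (adjusted p 0.00673) per the authors' deposited table. CENPJ changed by -0.46 ± 0.19 (adjusted p 0.0493) per the authors' deposited table and was the member just inside the threshold. CEP120, which promotes centriole elongation, rose by 0.45 ± 0.12 (adjusted p 0.00129) per the authors' deposited table. CEP135, which ties the cartwheel to the centriole wall, rose by 0.44 ± 0.16 (adjusted p 0.0257) per the authors' deposited table. For POC1B the rise was 0.40 ± 0.15 (adjusted p 0.0346) per the authors' deposited table, and centring ended this call (0.0534). SASS6 and STIL stood at -0.20 ± 0.24 and -0.06 ± 0.20 per the authors' deposited table, within 1 SE of 0.

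Of the other roles, CEP126, a microtubule-binding protein of the ciliary base, had the largest rise of any called member in UM-UC-3 (1.08 ± 0.27, adjusted p 0.000677 per the authors' deposited table), to 2.12 times the control. CEP112 rose by 0.79 ± 0.15 (adjusted p 4.1e-06) per the authors' deposited table. CEP170B, the paralog of the subdistal appendage protein CEP170, rose by 0.50 ± 0.14 (adjusted p 0.00289) and CEP95 by 0.38 ± 0.12 (adjusted p 0.00771) per the authors' deposited table. CEP112 and CEP170B stood above 0 in A-375 too (0.81 ± 0.48, adjusted p 0.278, and 0.36 ± 0.17, adjusted p 0.155, per the authors' deposited table). Neither was called there or for a difference between the lines. The other members called higher in UM-UC-3 stood below 0 in A-375. PCNT fell by 0.32 ± 0.12 log2 units (adjusted p 0.0355) per the authors' deposited table and was the single gene called lower in the pericentriolar role. CEP41, which acts in the modification of ciliary tubulin, was the first member outside the threshold (0.47 ± 0.21, adjusted p 0.0737 per the authors' deposited table).

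The cell lines share no library, so the 2 responses could be compared gene by gene. The difference of the log2 fold changes, UM-UC-3 minus A-375, was divided by the root of the summed squared SEs, with a 2-sided normal p adjusted (Benjamini-Hochberg) over the 12640 genes whose mean normalized count was 10 or more in both tables. Of 48 members, 6 were called with UM-UC-3 above A-375, where 6.32% of all genes compared were, and 0 with UM-UC-3 below, where 4.12% were. At an unadjusted p under 0.05, CENPJ, CEP95, CEP135 and SASS6 joined the 6 with UM-UC-3 above A-375, and those with UM-UC-3 below were CEP19 and CCDC14. The share of all genes compared at this unadjusted threshold was not counted, so these names have no background and are not read as a trait of the members. The median difference was 0.35 over the members and 0.09 over all genes compared, and 42 of 48 members (87.5%) had the higher value in UM-UC-3, against 57.0% of all genes compared. Across the 48 members the fold changes in the cell lines had a Pearson r of 0.55, against 0.34 across all genes compared. Genes are not independent replicates, and CCDC14 lies far from the rest of the points. The fold change of CCDC14 in UM-UC-3 was among the results known when the group was proposed. An r without CCDC14 was not computed, so the 2 values of r are not read as a difference.

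CNTRL differed most, by 1.96 ± 0.34 (SE of the difference; adjusted p 5.25e-06, with 0.14 ± 0.18 in UM-UC-3). CEP126 differed by 1.33 ± 0.37 (adjusted p 0.00858), with -0.25 ± 0.25 in A-375 and 1.08 ± 0.27 in UM-UC-3. CEP44 differed by 0.93 ± 0.26 (adjusted p 0.00858), with -0.73 in A-375 and 0.21 in UM-UC-3. POC1B differed by 0.93 ± 0.25 (adjusted p 0.00562), from -0.53 to 0.40. CEP83 differed by 0.84 ± 0.23 (adjusted p 0.00709), from -0.74 to 0.09, and CEP120 by 0.81 ± 0.24 (adjusted p 0.0128), from -0.35 to 0.45. The 3 genes lower in both lines were not called for a difference. That of CCDC14 was -1.03 ± 0.44 (adjusted p 0.112), that of CENPJ 0.84 ± 0.36 (adjusted p 0.113) and that of CEP152 0.33 ± 0.38 (adjusted p 0.621). With SEs of this size, a difference cannot be told from none for these genes. The members' median SE was 0.27 in A-375 and 0.17 in UM-UC-3, so a change of a given size was called more readily in UM-UC-3.

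**Figure D4:**
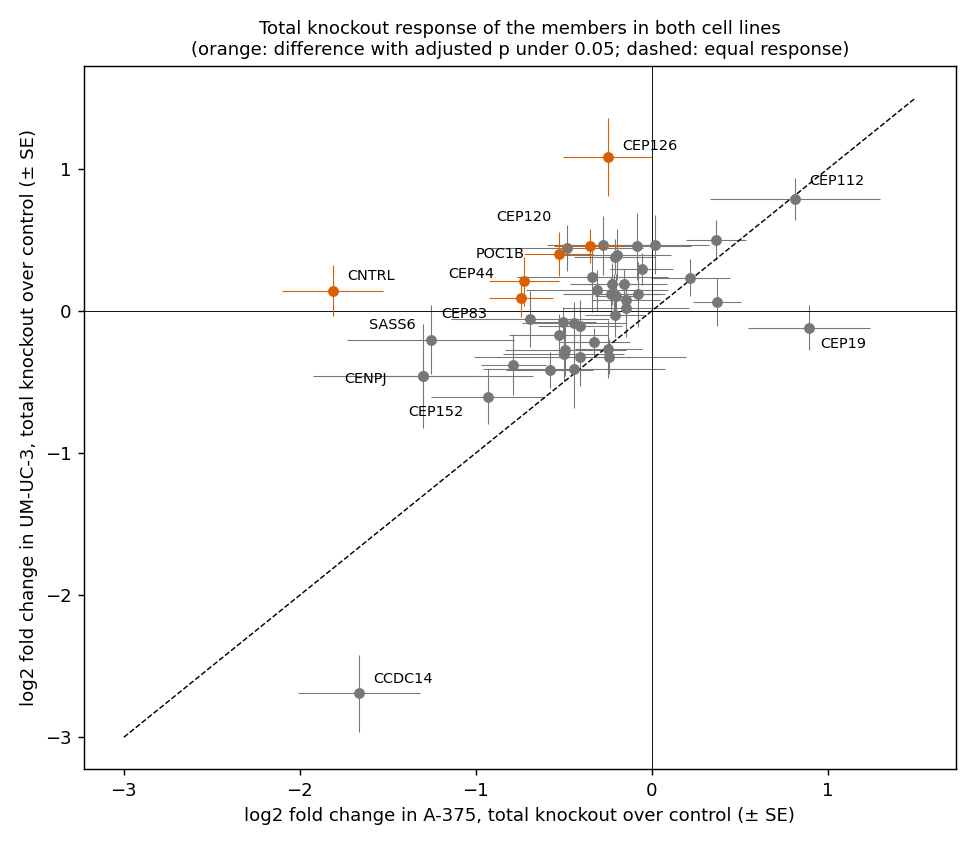
Log2 fold change of the total knockout over control in A-375 (x axis) against UM-UC-3 (y axis) for the 48 members in both tables, with bars of 1 SE. The dashed line marks equal responses; the 6 orange genes, called for a difference, all lie above it, and CCDC14 lies low in both lines at -1.67 and -2.69. The point of CEP55 lies on that of CENPJ.

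In the A-375 long-form knockout no member was called in either direction (0 of 48), where 0.664% of all genes were called lower and 0.240% higher. At an unadjusted p under 0.05 there were 2 lower members (4.17%), CEP126 and CEP85L, and 1 higher (2.08%), CEP41, against 6.31% and 4.61% of all genes, so both shares were below those over all genes. The members' median was 0.04 against 0.02 over all genes, and they ranged from -0.55 to 0.40. This comparison rests on 2 knockout libraries, and the A-375 tables may share control libraries, so their values are only set side by side. CCDC14 stood at -0.05 ± 0.14 (adjusted p 0.911) here and at -1.67 ± 0.35 in the total knockout of the same line, both per the authors' deposited tables. The G2 and M genes stood above 0 in 15 of 15 cases in the long-form table, with a median of 0.25, and below 0 in 15 of 15 in the total knockout table; their part in the members' values was not tested. CENPJ was at 0.08 ± 0.19 (adjusted p 0.909) and CEP152 at -0.11 ± 0.21 (adjusted p 0.871) per the authors' deposited table. CNTRL had one of the lower values here as well (-0.47 ± 0.30, adjusted p 0.562 per the authors' deposited table). The smallest adjusted p of any member, 0.214, was that of CEP126 (-0.52 ± 0.19 per the authors' deposited table). CEP85L stood at -0.55 ± 0.22 (adjusted p 0.289), CEP63 at 0.40 ± 0.23 (adjusted p 0.534) and PCM1 at 0.18 ± 0.12 (adjusted p 0.584) per the authors' deposited table.

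Other genes of the centrosome, from lists outside the members, were counted in the same way. The lists were chosen with earlier results of these data known, so the counts describe these genes and do not test them. Their counts are read against the shares of all genes called lower and higher, which were 5.74% and 5.07% in A-375 and 14.2% and 17.0% in UM-UC-3. The gamma-tubulin ring complex, which nucleates microtubules, had 3 of 11 genes called lower (27.3%) and 0 higher in A-375 and 3 lower (27.3%) and 1 higher (9.09%) in UM-UC-3. NEDD1, which brings the complex to the centrosome, was lower in both lines (-1.38 ± 0.21, adjusted p 5.83e-08, in A-375 and -1.11 ± 0.19, adjusted p 1.58e-07, in UM-UC-3, per the authors' deposited tables). Augmin, which branches spindle microtubules, had 0 of 8 called in A-375 (2 lower at an unadjusted p under 0.05; median -0.58) and 2 lower (25.0%) in UM-UC-3. Those were HAUS1 (-0.94 ± 0.18, adjusted p 2.97e-06) and HAUS7 (-0.60 ± 0.16, adjusted p 0.00121) per the authors' deposited table.

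A list of 26 further centriole and centrosome genes had 4 lower (15.4%, against 5.74% of all genes) and 0 higher in A-375. In UM-UC-3 it had 3 lower (11.5%) and 4 higher (15.4%), both below the 14.2% and 17.0% over all genes. In A-375 the 4 were RTTN, a centriole elongation protein (-0.75 ± 0.19, adjusted p 0.00322), ASPM, a spindle-pole protein (-1.44 ± 0.43, adjusted p 0.0131), MPHOSPH9 and ODF2 per the authors' deposited table. PLK4, the kinase that starts centriole duplication, was at -0.97 ± 0.51 (adjusted p 0.217) in A-375 and fell by 0.55 ± 0.22 log2 units in UM-UC-3 (adjusted p 0.0384) per the authors' deposited tables. The higher genes in UM-UC-3 included TTBK2, a kinase that starts cilium assembly (0.60 ± 0.14, adjusted p 0.000127), and AKAP9, a centrosome and Golgi scaffold (0.42 ± 0.11, adjusted p 0.00201), per the authors' deposited table.

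The list of other satellite and ciliary genes had 3 of 17 lower (17.6%, against 5.74% of all genes) and 0 higher in A-375 (median -0.33). In UM-UC-3 it had 1 lower (5.88%, against 14.2%) and 6 higher (35.3%, against 17.0%), with a median of 0.28; the difference between lines was not tested over the list. BBS4, a BBSome subunit found at satellites, was lower in both (-0.92 ± 0.30, adjusted p 0.0252, in A-375 and -0.70 ± 0.15, adjusted p 7.76e-05, in UM-UC-3, per the authors' deposited tables). Its BBSome partners BBS2 (0.73 ± 0.11, adjusted p 1.02e-09), BBS5 (0.59 ± 0.12, adjusted p 1.4e-05) and TTC8 (0.60 ± 0.14, adjusted p 0.000201) rose in UM-UC-3 per the authors' deposited table. In the long-form knockout, 0 genes of these 4 lists were called by the authors' adjusted p, where 0.664% of all genes were lower and 0.240% higher. The lists had 11, 8, 26 and 17 measured genes there. An unadjusted p under 0.05 was found for 3 of them (2 lower and 1 higher), and for 6.31% (lower) and 4.61% (higher) of all genes.

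Some values carry a limit from the annotation. In GENCODE 29, 12 of the 49 members share exonic bases with another gene of the deposited tables, 10 of them with genes on the opposite strand only, and no source used here says if reads were counted by strand. Among the called members these were CEP295 (250 bases with TAF1D), CEP44 (464 with FBXO8), CEP83 (177 with PLXNC1), CEP95 (506 with DDX5 and 167 with SMURF2) and POC1B (229 with the read-through gene POC1B-GALNT4, on its own strand), whose values are uncertain to that extent. FBXO8, PLXNC1 and TAF1D stood at -0.66 ± 0.31, -0.55 ± 0.31 and -0.27 ± 0.39 in A-375 per the authors' deposited table, none of them called. In UM-UC-3, where CEP95 and POC1B rose, DDX5 fell by 0.38 ± 0.10 log2 units (adjusted p 0.000689) per the authors' deposited table. SMURF2 stood at 0.08 ± 0.19 and POC1B-GALNT4 at 0.20 ± 1.73 there, neither called, per the authors' deposited table. TAF1D rose by 0.93 ± 0.35 (adjusted p 0.0312) in UM-UC-3 per the authors' deposited table, where CEP295 was not called. CCDC14, CENPJ, CEP152 and CNTRL share no exonic base with another gene of the tables.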

How the data were processed

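The authors deposited 3 tables of fitted comparisons. The submitters' processing notes name DESeq2, HISAT2, StringTie, SAMtools and the genome build hg38 and state no version. The annotation, any filter, the model formula and the control libraries were not given in the sources used here. Per the file headers, the deposited columns are a signal (size-factor-scaled counts averaged across the libraries entering each fit, called the mean normalized count here), the log2 fold change with its SE, a score (the Wald statistic), and the p-value, adjusted p-value and q-value. Recomputed adjusted p-values differed from the authors' by at most 1.51e-05 over 14330, 13310 and 14156 genes.

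The members and lists were chosen with earlier results of these data known. Named genes are CCDC14; called members (up to 15 each way per table); members called in both lines or for the difference; the leading member of a role without calls; up to 4 called genes per other list; and neighbours of the threshold. Other members named to show a role, and head-to-head neighbours, were chosen after their values were seen. Differences between lines used Python 3.11.15 with SciPy 1.17.1, tested on simulated data. Implied levels solve the mean for 1 control level, given the fold change and the library numbers. Genes were placed with GENCODE 29 (49 of 49 found), and promoters come from RefSeq (GRCh38.p14; 43 of 49 matched by gene ID). The p-values measure the spread between libraries, some of which share a clone. The depth per library is unknown, so precision is given by the SE. Alternatives tried were the q-value, thresholds of 0.01 and 0.1, centring, a minimum mean of 10 and a minimum of 1.5-fold. A member, counted in all totals, and a gene of another list are not reported here by name.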

Additional observations from a re-analysis of the deposited data

Results flagged for a closer look

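The total knockout response of 6 members differed between the cell lines by the test of the difference itself (normal p of the difference over its SE, Benjamini-Hochberg over 12640 genes). As UM-UC-3 minus A-375 log2 fold changes, these were CNTRL (1.96), CEP126 (1.33), CEP44 (0.935), POC1B (0.929), CEP83 (0.837) and CEP120 (0.806). CNTRL, CEP44 and CEP83 were called lower in A-375 and not called in UM-UC-3, where their values were 0.14, 0.21 and 0.09. CEP126, POC1B and CEP120 were called higher in UM-UC-3 and not called in A-375. The cell line cannot be told apart from differences between the fits, which had other library numbers and possibly 1 control library in UM-UC-3. CEP44, CEP83 and POC1B share exonic bases with other genes of the tables, and the part of those reads was not tested.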

How the results depend on the processing

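The tables hold no value per library, so leaving out a replicate was not run. No paired analysis was possible because the result comes from the authors' fits and no value per library was used. The 7 members called lower in A-375 became 6 to 10 over the alternatives, and those called higher went from 0 to 2 with the q-value, 2 at an adjusted p under 0.1 (CEP164 and CEP19 both times) and 1 after centring. Over the same alternatives, 2.62% to 9.01% of all genes were called lower in A-375 and 2.30% to 7.72% higher. In UM-UC-3 the 5 called lower became 3 at an adjusted p under 0.01 and 2 with a minimum of 1.5-fold. By these rules 9.25% and 6.96% of all genes were called lower. The 8 called higher became 5 and 2, where 11.1% and 10.3% of all genes were called higher. With the q-value and at an adjusted p under 0.1 there were 6 lower and 11 higher members. After centring there were 6 lower and 6 higher. The long-form knockout kept 0 members in each direction under the 6 alternatives. The 6 members called for a difference between lines became 5 at an adjusted p under 0.01, where 4.10% of all genes compared were called. They became 7 when each table was centred (10.5% of all genes) and at an adjusted p under 0.1 (16.9%). The member added both times was CEP19, which unlike the other 6 had UM-UC-3 below A-375 (-1.01). Over all members, centring ended 3 calls (CEP152 in A-375, CEP131 and POC1B in UM-UC-3) and added 2 (CEP164 in A-375, CNTROB in UM-UC-3). The q-value added 9 and ended 0: CEP164, CEP19, NIN, POC1B and SASS6 in A-375, and CEP290, CEP41, CEP57 and CNTROB in UM-UC-3. At least 2 matches of CCGGAAG were in 2 members (4.65%), against 3.98% of the genes of the deposited tables with a promoter. GGAAG was in 36 of 43 (83.7%), against 81.4% of those genes.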

Other observations

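By GENCODE 29, 12 of the 49 members have a protein-coding gene on the opposite strand whose start lies within 1000 bases of their own, so that both may be read from 1 promoter region. This was looked at after the data were seen. Of the 11 neighbours measured in each table, 2 were called in A-375, 2 in UM-UC-3 and 0 in the long-form knockout. The shares of all genes called in either direction were 10.8%, 31.1% and 0.904%. In 1 pair both genes were called (PCNT and C21orf58 in UM-UC-3). The pairs with a called neighbour are given next. PCNT and its neighbour C21orf58, 247 bases apart, were both called lower in UM-UC-3 (-0.32 ± 0.12 for PCNT and -0.82 ± 0.25, adjusted p 0.00684, for C21orf58 per the authors' deposited table). In A-375, C21orf58 was called lower as well (-1.15 ± 0.39, adjusted p 0.0370) and PCNT was not (-0.24 ± 0.12) per the authors' deposited table. TRMT13, a tRNA methyltransferase 195 bases from SASS6, fell by 0.74 ± 0.22 log2 units in A-375 (adjusted p 0.0125 per the authors' deposited table), beside -1.26 ± 0.47 for SASS6. In UM-UC-3 this pair stood at 0.10 ± 0.18 and -0.20 ± 0.24 per the authors' deposited table. TRAPPC1, which overlaps the start of CNTROB, fell by 0.59 ± 0.13 log2 units in UM-UC-3 (adjusted p 0.000123 per the authors' deposited table), where CNTROB stood at -0.22 ± 0.10 (adjusted p 0.0772). The promoter windows of SASS6 and CNTROB each hold the CCGGAAG motif, and that of PCNT does not. The windows of OFD1 and CEP44 hold it too, and neither of their neighbours TRAPPC2 and FBXO8 was called in any table.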
